A study of Mus musculus with 11 samples.

Results

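Neurod6, Emx2, Slc17a7, Tbr1, Fezf2, Lmo3, Mef2c and Nptx1 are genes that mark excitatory neurons of the cerebral cortex and hippocampus, or regions within them. They were followed here in a tissue outside the cortex, the adult mouse hypothalamus. The members were taken by gene name from the deposited RNA-seq table, and all 8 were found among its 14864 genes. The first group was Het, heterozygous for the study's Myt1l mutation, with 6 libraries (3 female and 3 male), and the second was WT, wild type, with 5 libraries (2 female and 3 male). The product of Myt1l is a zinc finger protein that acts on transcription in neurons. All mice were sampled between postnatal days 60 and 70, and the labels name hypothalamus as the tissue of every library. The sources used here do not state the nature of the mutated allele or the strain. Libraries are named below by group and by the replicate number of their label, so that Het 2, Het 4 and Het 7 are the Het females, Het 5, Het 8 and Het 9 the Het males, WT 4 and WT 6 the WT females, and WT 3, WT 7 and WT 11 the WT males.

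Excitatory neurons of the cortex and hippocampus arise from the embryonic pallium, where a cascade of transcription factors sets their identity. Emx2 acts early and patterns the pallium, and the bHLH factor Neurod6, the T-box factor Tbr1 and the zinc finger factor Fezf2 act in the neurons as they differentiate. The mature neurons load glutamate into vesicles mainly with the transporter that Slc17a7 encodes, whereas most excitatory neurons of the hypothalamus use its relative Slc17a6. Several of these genes are also used outside the pallium, and Mef2c is known from microglia and blood vessel cells as well as from cortical neurons.

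Levels are CPM, counts scaled to the library total, recovered from the deposited log2 values. After the authors' correction, library totals were 22921048 to 24941704 corrected counts, and 1 corrected count was worth 0.0417 to 0.0423 CPM. All 20 hypothalamic markers listed were measured, with summed levels of 2664 to 3980 CPM in Het and 3729 to 4672 CPM in WT libraries. All 18 striatal markers listed were measured too, with sums of 2461 to 4410 CPM in Het and 2089 to 2680 CPM in WT. In the library labelled Het 9 the striatal sum, 4410 CPM, was above the hypothalamic sum, 2664 CPM. These sums do not check the tissue label, which was not tested. The mutated gene itself did not separate the groups over all 11 libraries: Myt1l averaged 76.3 ± 26.9 CPM in Het (SD, n = 6) and 76.3 ± 15.9 CPM in WT (SD, n = 5). The library labelled Het 9 was the highest at 130 CPM and that labelled WT 11 the lowest at 51.1 CPM, both against the direction of their labels. The other 5 Het libraries had 58.7 to 75.9 CPM and the other 4 WT libraries 70.5 to 89.3 CPM, lower in Het apart from Het 8, which was above WT 4. These 2 libraries are set apart by their Myt1l level itself, so no test without them is given for Myt1l, and the members' differences from WT are given with and without both. The descriptions carry prefixes of unstated meaning. Prefix 14308 holds 2 Het and 2 WT libraries, all male, prefix 14309 holds 4 Het and 2 WT libraries, and prefix 14111 holds WT 4 alone.

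Promoter sequences are shown for the members that the results below turn on: Tbr1, which had the largest Het to WT difference of the 8, and Emx2 and Mef2c, the pair that went together most closely between libraries. Each is the 250 bases before a RefSeq gene start on mm10 (GRCm38.p6), plus strand. RefSeq gave a window for 7 of the 8 members and 9 windows in all. Capitals mark 2 motifs, the E-box CANNTG, the letters that bHLH factors such as Neurod6 bind, and TAATTA, a core of homeodomain binding sites. The Tbr1 stretch lies at chr2:61804203-61804452, the Emx2 stretch at chr19:59458440-59458689 and the most upstream of 3 Mef2c stretches at chr13:83503784-83504033. In the GENCODE annotation, Tbr1 starts at 61802930 and Emx2 at 59458372, so these 2 stretches lie inside the annotated genes and may be partly transcribed. The Mef2c stretch lies before the GENCODE start, 83504034.
Tbr1: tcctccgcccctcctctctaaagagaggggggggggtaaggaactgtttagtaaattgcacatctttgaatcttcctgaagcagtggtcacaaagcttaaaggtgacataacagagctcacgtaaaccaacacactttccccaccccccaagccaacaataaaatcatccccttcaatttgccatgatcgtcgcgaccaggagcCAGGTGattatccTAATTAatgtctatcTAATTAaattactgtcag
Emx2: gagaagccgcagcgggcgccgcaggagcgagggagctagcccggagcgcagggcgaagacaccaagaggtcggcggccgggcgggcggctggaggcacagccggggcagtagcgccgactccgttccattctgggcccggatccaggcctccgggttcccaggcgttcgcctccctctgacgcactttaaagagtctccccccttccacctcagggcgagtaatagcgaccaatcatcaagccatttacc
Mef2c: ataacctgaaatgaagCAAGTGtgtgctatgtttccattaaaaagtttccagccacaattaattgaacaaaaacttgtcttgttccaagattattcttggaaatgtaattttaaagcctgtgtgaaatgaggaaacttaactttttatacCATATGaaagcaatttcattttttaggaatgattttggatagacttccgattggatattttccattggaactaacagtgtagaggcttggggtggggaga

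The printed Tbr1 stretch holds 1 E-box, 2 TAATTA and 5 CpG, the Emx2 stretch 0 of either motif and 24 CpG, and the Mef2c stretch 2 E-boxes and 1 CpG. Both motifs read the same on either strand, and no 2 sites overlap. Over the full windows, 250 bases before to 50 after a start, 72.3% of 32851 windows of all genes hold an E-box and 5.29% a TAATTA, and the median window holds 7 CpG. The full windows of Emx2 and of 1 other Mef2c start each hold 1 TAATTA. The match is one of letters, so it names no bound factor. The T-box motif AGGTGTGA, held by 1.28% of windows on either strand, can overlap an E-box. Among the members it was found only in the window of Lmo3, where it overlapped none. The MEF2 motif, held by 3.19% of windows, was found in none of the members' windows.

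The 8 genes spanned a wide range of levels. Per kilobase of exon, over the 11 libraries, Lmo3 was highest with 17.4 ± 2.51 CPM per kb (SD), followed by Mef2c with 5.09 ± 0.883. Nptx1 and Neurod6 came next with 2.37 ± 0.371 and 2.35 ± 0.876 CPM per kb. Their ranges overlapped, and Nptx1 was above Neurod6 in 8 of 11 libraries. Below them stood Slc17a7 with 0.955 ± 0.309, Fezf2 with 0.828 ± 0.308 and Emx2 with 0.648 ± 0.178 CPM per kb, each overlapping its neighbour in the order. Tbr1 was lowest with 0.187 ± 0.0887 CPM per kb, below Emx2 in all 11 libraries. In CPM, the mean level of Lmo3 exceeded that of 85.9% of the genes in the table and that of Mef2c 84.6%, against 47.9% for Nptx1, 31.1% for Slc17a7, 30.8% for Neurod6, 20.9% for Fezf2, 17.9% for Emx2 and 11.6% for Tbr1.

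Slc17a7, Fezf2, Nptx1 and Lmo3 each had a more abundant relative in the same gene family, in all 11 libraries. Per kilobase, Slc17a6, the vesicular glutamate transporter of most subcortical excitatory neurons, stood at 18.7 to 59.5 times Slc17a7, with a median of 27.4. Fezf1, the relative of Fezf2 that is known from the ventromedial hypothalamus, stood at 5.29 to 14.5 times Fezf2. Nptxr, the membrane receptor of the neuronal pentraxins, stood at 2.60 to 3.94 times Nptx1. Lmo4, another LIM-only protein, stood at 1.06 to 2.95 times Lmo3. The order was the other way for Mef2c, which stood at 2.31 to 3.55 times Mef2a, and for Neurod6, which was above Neurod1 in 10 of 11 libraries. Emx1, the partner of Emx2 in the developing cortex, had 0.0840 to 0.419 CPM in Het libraries and 0.0839 to 0.337 CPM in 4 WT libraries, against 1.89 CPM in the library labelled WT 11.

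**Figure D1:**
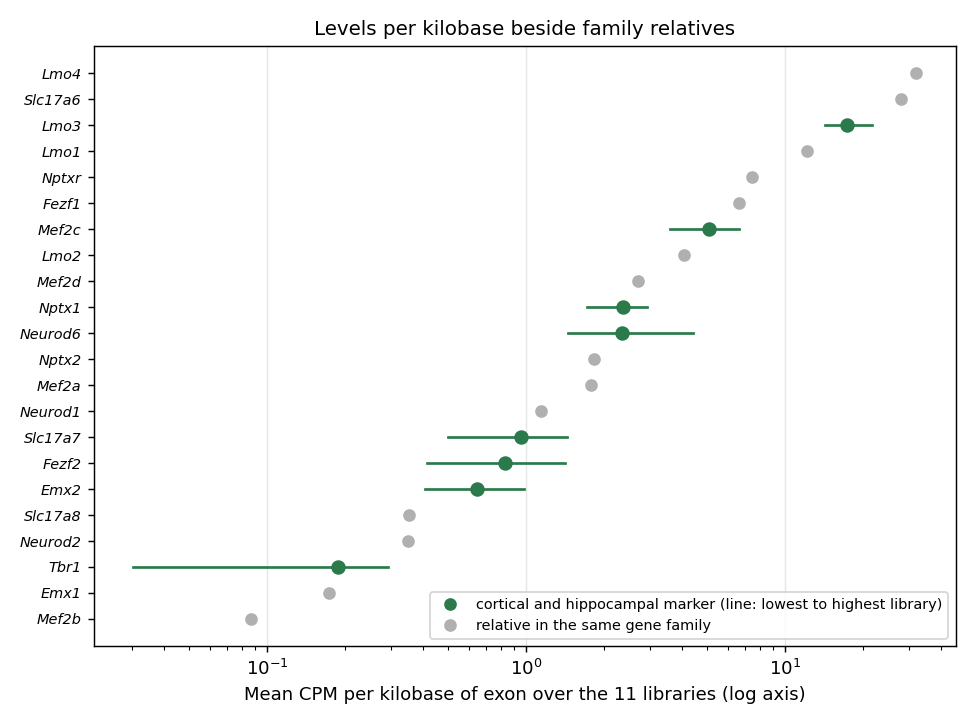
Mean CPM per kilobase of exon over the 11 libraries on a log axis for the 8 markers (green, with a line from the lowest to the highest library) and for the 14 measured relatives of the same gene families (grey). Lmo3 and Mef2c are the highest of the 8 markers, Tbr1 is the lowest, and Slc17a6, Fezf1, Nptxr and Lmo4 lie above Slc17a7, Fezf2, Nptx1 and Lmo3.

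Het and WT libraries were compared to ask whether Myt1l heterozygosity went with a change of these genes. None of the 8 passed limma's test on log2(CPM + 0.5) with genotype and sex as terms, at an adjusted p of 0.05 over the 13184 genes with a mean of at least 1 CPM, against a background of 3.44% of genes called (453 genes, with 2.30% higher and 1.14% lower in Het). At an unadjusted limma p below 0.05, 2 of the 8, Tbr1 and Fezf2, passed, against 2938 of all 13184 genes tested. No member separated all Het from all WT libraries, which 3.35% of genes did. The fitted difference was positive for 4 of the 8 members, and its median was 0.033 on the log2 scale for the 8 genes and -0.016 for all genes tested. In bulk tissue, fewer cells of a type and less RNA per cell cannot be told apart.

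Of the transcription factors, Tbr1, which specifies deep-layer neurons that project to the thalamus, came closest to the threshold. The gene (ENSMUSG00000035033) lies on mm10 chromosome 2 from 61802930 to 61814114. It had 0.845 CPM in the lowest, 1.38 in the median and 1.60 in the highest Het library. WT 4, WT 6, WT 3, WT 7 and the library labelled WT 11 had 0.167, 0.294, 0.759, 0.797 and 1.26 CPM. All Het libraries but Het 2 were above every WT library, and Het 2 was below WT 11 alone. The counts behind these values were small, 20 to 38 corrected counts in Het and 4 to 30 in WT libraries. The mean was 1.34 ± 0.259 CPM in Het (SD, n = 6) and 0.656 ± 0.438 CPM in WT (SD, n = 5), so Tbr1 passed the filter on low values only through the Het group. The difference was 0.80 on the log2 scale (SE 0.235, 95% interval 0.30 to 1.30, limma adjusted p = 0.0704). With no filter on low values the limma adjusted p was 0.0568. Permuting the genotype labels within each sex gave an exact two-sided permutation p of 0.005, the smallest that its 200 arrangements allow. Like the permutation p of other single members below, it was not adjusted over genes.

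Within each sex, the Het libraries lay above the WT libraries for Tbr1. Het females had 0.845 to 1.47 CPM and WT females 0.167 to 0.294 CPM, and Het males had 1.34 to 1.60 CPM and WT males 0.759 to 1.26 CPM. This description was chosen after the values were seen, and 3.88% of all genes tested were higher in Het without overlap in both sexes, or 7.48% with either direction counted. Over 26 alternative settings, the adjusted p lay between 0.0496, reached without the library labelled WT 11, and 0.578. Without that library the difference was 0.92, and without both libraries labelled Het 9 and WT 11 it was 0.96 (limma adjusted p = 0.0679). The libraries of prefix 14309 alone gave 0.68 and those of prefix 14308 alone 0.65, with limma adjusted p of 0.541 and 0.563. In females alone it was 1.22 and in males alone 0.46. Summed cortical layer markers stood at 581 to 798 CPM in Het and 563 to 651 CPM in WT libraries, and their part in the Tbr1 difference was not tested.

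Fezf2, which specifies deep-layer neurons that project to the brainstem and spinal cord, had a difference of the opposite sign. Fezf2 (ENSMUSG00000021743, mm10 chromosome 14 from 12342094 to 12348189, minus strand) had 1.26 CPM in the lowest, 2.15 in the median and 2.57 in the highest Het library. Levels in WT 4, WT 6, WT 3, WT 7 and the library labelled WT 11 were 4.30, 2.10, 2.07, 3.23 and 3.95 CPM. WT 4, WT 7 and WT 11 were above all Het libraries, while WT 6 and WT 3 lay among them. The mean was 2.02 ± 0.487 CPM in Het and 3.13 ± 1.03 CPM in WT, a log2 difference of -0.50 (SE 0.224, 95% interval -0.97 to -0.02, limma adjusted p = 0.201, exact permutation p = 0.075). Leaving out 1 library at a time gave -0.63 without WT 6 (exact permutation p = 0.0375) to -0.34 without WT 4 (exact permutation p = 0.2). Without both libraries labelled Het 9 and WT 11, the difference was -0.43 (limma adjusted p = 0.347).

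Neurod6, a bHLH factor of pyramidal neurons, had a wider range in WT than in Het libraries, a difference in spread that was not tested. It (ENSMUSG00000037984, mm10 chromosome 6 from 55677822 to 55681263, minus strand) had 3.74 CPM in the lowest, 4.22 in the median and 5.62 in the highest Het library. The WT libraries 4, 6, 3 and 7 and the one labelled WT 11 had 7.39, 3.74, 3.12, 5.03 and 9.45 CPM. Het libraries thus lay inside the WT range, with WT 11 and WT 4 above all of them and WT 6 and WT 3 at or below the lowest. The difference was -0.25 (SE 0.233, 95% interval -0.74 to 0.24, limma adjusted p = 0.556). Without both libraries labelled Het 9 and WT 11 it was -0.03. Neurod2, a relative that acts in the same neurons, was also highest in the library labelled WT 11, at 2.02 CPM, with 0.713 to 1.59 CPM in Het libraries and 0.420 to 1.34 CPM in the other WT libraries.

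Emx2, a homeobox factor needed for the hippocampus to form, showed the reverse spread, wide in Het and narrow in WT. The gene (ENSMUSG00000043969) lies on mm10 chromosome 19 from 59458372 to 59465357, and 264 of its 3002 exon bases are shared with the antisense gene Emx2os, so reads of the 2 may be mixed if counting ignored strand. The 6 Het libraries split into Het 9, Het 2 and Het 4 at 2.94, 2.45 and 2.31 CPM, and Het 8, Het 5 and Het 7 at 1.39, 1.26 and 1.22 CPM. WT 4, WT 6, WT 3, WT 7 and WT 11 had 1.79, 1.93, 2.32, 1.93 and 1.85 CPM, between these clusters apart from WT 3, which was close to Het 4. The SD was 0.733 CPM in Het and 0.206 CPM in WT, and no test of this difference in spread was run. The means were 1.93 CPM in Het and 1.97 CPM in WT, with a log2 difference of -0.08 (SE 0.224, 95% interval -0.55 to 0.40, limma adjusted p = 0.876). It was -0.22 without both libraries labelled Het 9 and WT 11 (limma adjusted p = 0.626).

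Mef2c, a MADS-box factor that acts in the development and synapse number of cortical neurons, was measured at far higher counts. It (ENSMUSG00000005583, mm10 chromosome 13 from 83504034 to 83667080) had 74.5 CPM in the lowest, 83.2 in the median and 104 in the highest Het library. WT 4, WT 6, WT 3, WT 7 and WT 11 had 56.4, 61.2, 89.2, 87.1 and 74.1 CPM. The WT females were the lowest of all 11 libraries, the male WT 11 was just below the lowest Het library, and the WT males 3 and 7 lay among the Het libraries. The difference was 0.24 (SE 0.116, 95% interval -0.005 to 0.49, limma adjusted p = 0.233, exact permutation p = 0.14), and 0.23 without both libraries labelled Het 9 and WT 11. It was 0.15 without WT 4. Within prefix 14309 it was 0.45 (limma adjusted p = 0.172) and within prefix 14308, all male, -0.23 (limma adjusted p = 0.441). Microglia express Mef2c too, and the summed microglia markers were 668 to 728 CPM in Het and 669 to 732 CPM in WT libraries, with 0 of 9 called. The part of microglia or blood vessel cells in the Mef2c difference was not tested.

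Lmo3, a LIM-only protein that binds transcription factors rather than DNA, was the most abundant member. It (ENSMUSG00000030226, mm10 chromosome 6 from 138362918 to 138581968, minus strand) had 74.8 CPM in the lowest, 94.3 in the median and 111 in the highest Het library, against 73.1, 80.9, 93.4, 102 and 77.1 CPM in WT 4, WT 6, WT 3, WT 7 and WT 11. The groups overlapped over most of their range, and the difference was 0.14 (SE 0.0779, 95% interval -0.02 to 0.31, limma adjusted p = 0.298). Without both libraries labelled Het 9 and WT 11 it was 0.05.

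The 2 members that act at synapses had small differences. Slc17a7 (ENSMUSG00000070570, mm10 chromosome 7 from 45163949 to 45176142), which encodes the vesicular glutamate transporter VGLUT1, had 2.69 CPM in the lowest, 5.08 in the median and 6.21 in the highest Het library, against 2.96, 4.70, 5.36, 7.76 and 7.44 CPM in WT 4, WT 6, WT 3, WT 7 and WT 11. WT 7 and WT 11 were above all Het libraries and the other WT libraries among them. The difference was -0.19 (SE 0.239, 95% interval -0.70 to 0.31, limma adjusted p = 0.676), and -0.11 without both libraries labelled Het 9 and WT 11. Without WT 4 it was -0.40, and without Het 8 it was 0.00013. Nptx1 (ENSMUSG00000025582, mm10 chromosome 11 from 119538719 to 119547753, minus strand), a secreted pentraxin that gathers AMPA receptors at synapses, had 10.7 CPM in the lowest, 12.9 in the median and 15.2 in the highest Het library, against 10.6, 11.0, 8.94, 12.6 and 15.1 CPM in WT 4, WT 6, WT 3, WT 7 and WT 11. Its difference was 0.16 (SE 0.133, 95% interval -0.12 to 0.44, limma adjusted p = 0.504), and WT 3 was the only library below 10 CPM. Without WT 3 the difference was 0.07, without WT 11 it was 0.25, and without both libraries labelled Het 9 and WT 11 it was 0.26 (limma adjusted p = 0.288).

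**Figure D2:**
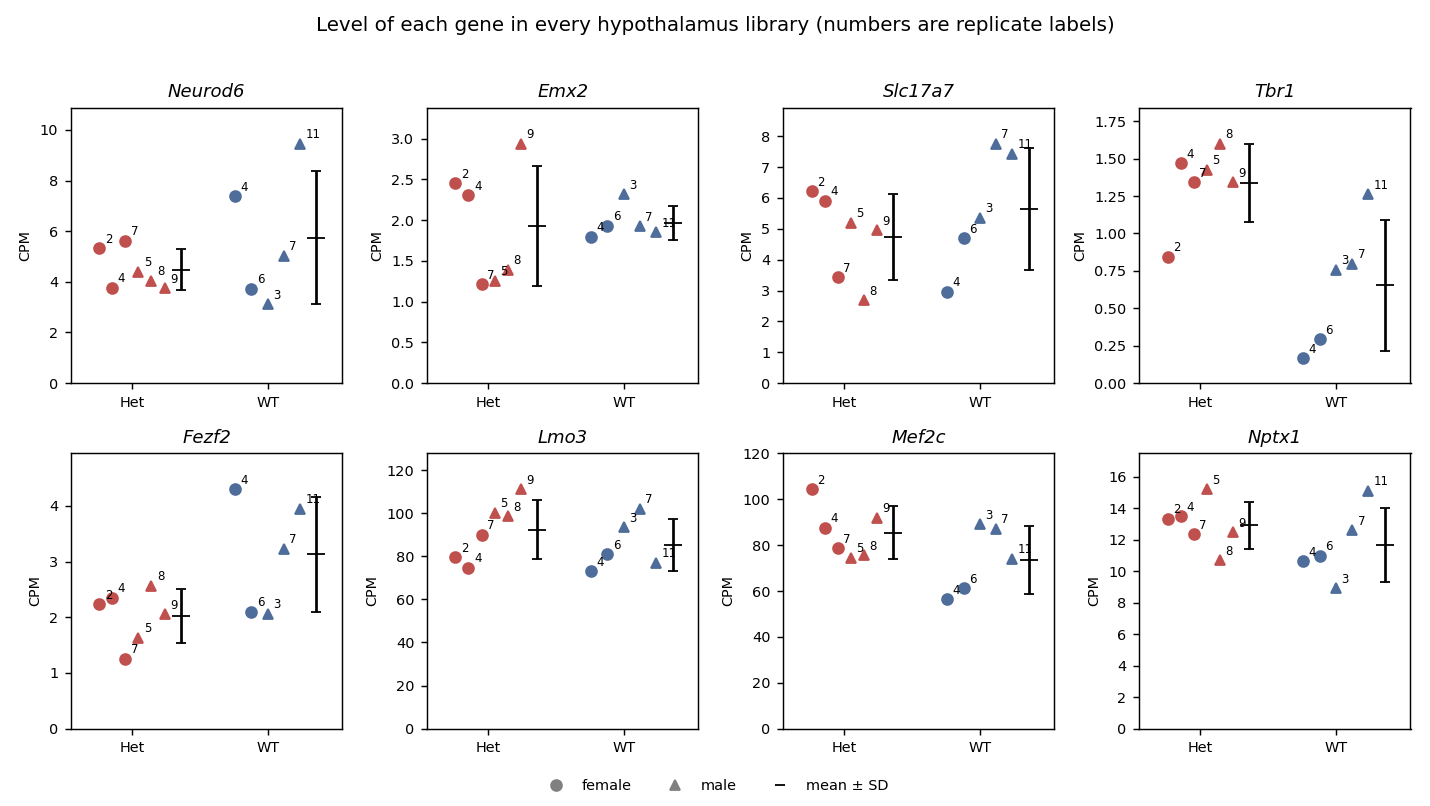
CPM of each marker in the 6 Het (red) and 5 WT (blue) libraries, with circles for females, triangles for males, the replicate number beside each point and the mean with SD as black bars. For Tbr1 all Het libraries but Het 2 lie above all WT libraries, for Emx2 the Het libraries split into 3 at 2.31 to 2.94 CPM and 3 at 1.22 to 1.39 CPM, and for each of the 8 genes the groups overlap.

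Females and males were compared in the same fit. None of the 8 genes passed it, against 0.197% of genes called (26 of 13184, with 0.0758% higher and 0.121% lower in females), and none separated all females from all males, which 1.03% of genes did. Lmo3 came closest, with 79.6 ± 6.62 CPM in females (SD, n = 5) and 97.1 ± 11.4 CPM in males (SD, n = 6) and a log2 difference, female minus male, of -0.29 (SE 0.0779, 95% interval -0.46 to -0.13, limma adjusted p = 0.158). Het females had 74.8 to 90.0 CPM and Het males 98.7 to 111 CPM, whereas WT females had 73.1 to 80.9 CPM and the male labelled WT 11, at 77.1 CPM, lay between them. Without that library the difference was -0.34 and the limma adjusted p 0.039. Without both libraries labelled Het 9 and WT 11 it was -0.32 (limma adjusted p = 0.108). Tbr1 had 0.167 to 1.47 CPM in females and 0.759 to 1.60 CPM in males, a difference of -0.54 (limma adjusted p = 0.363). The other 6 members had differences between -0.20 and 0.12.

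Whether the genotype difference itself differed between the sexes was tested by a genotype by sex term. By limma it called 0 of 13184 genes, with 613 genes at an unadjusted p below 0.05. Mef2c had the smallest p of the 8: Het females had 78.7 to 104 CPM and WT females 56.4 to 61.2 CPM, while Het males had 74.5 to 91.9 CPM and WT males 74.1 to 89.2 CPM. The difference between the sexes was 0.66 on the log2 scale (SE 0.173, 95% interval 0.29 to 1.03), with an unadjusted limma p of 0.00187 and an adjusted p of 0.982. Slc17a7 had 3.44 to 6.21 CPM in Het females and 2.96 to 4.70 CPM in WT females, against 2.69 to 5.20 CPM in Het males and 5.36 to 7.76 CPM in WT males. Its genotype by sex term was 1.03 (SE 0.42), with a limma adjusted p of 0.982. The term was 0.84 for Mef2c and 1.09 for Slc17a7 without both libraries labelled Het 9 and WT 11 (limma adjusted p = 0.808 for each). The WT female group is 2 libraries, and WT 4, the lower of them for both genes, is the only library of its description prefix.

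**Figure D3:**
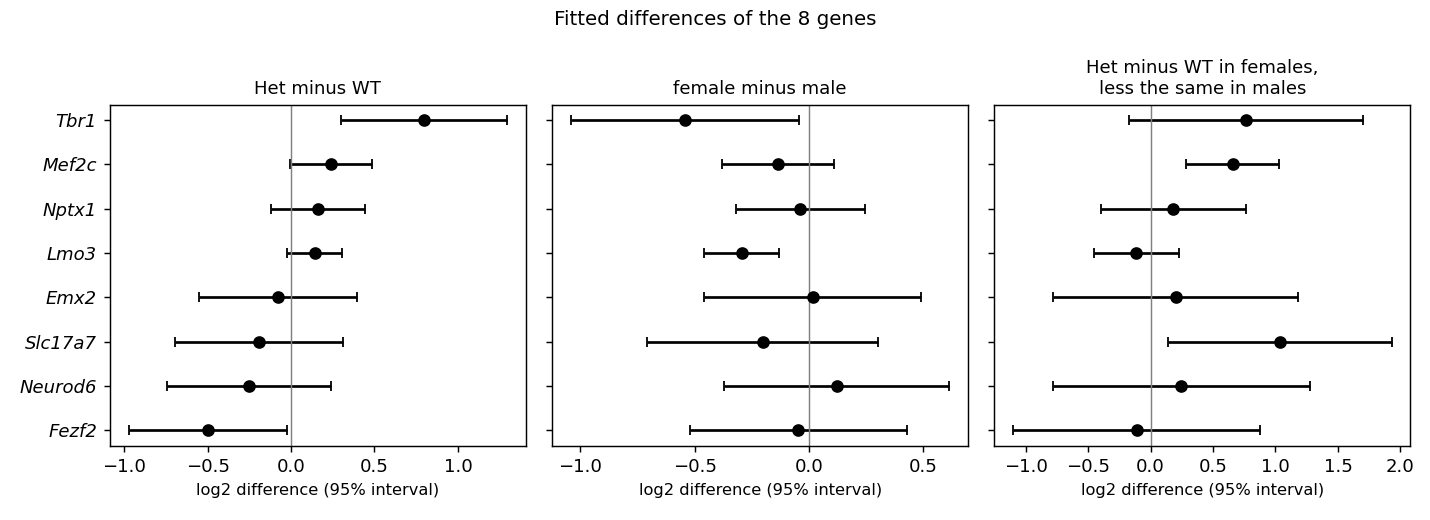
Fitted log2 differences with 95% intervals for the 8 markers: Het minus WT (left), female minus male (middle) and the Het minus WT difference in females less that in males (right). Tbr1 has the largest Het minus WT difference, 0.80, Lmo3 has the female minus male difference farthest from 0 in units of its error, and Mef2c and Slc17a7 have intervals above 0 in the right panel.

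Co-variation between libraries asks whether the 8 genes were high and low in the same libraries. Over the set, positive and negative relations were equally frequent. The mean of each genotype and sex group was taken out of log2(CPM + 0.5), and Pearson's r and Spearman's rho were computed over the 11 libraries for the 28 pairs, with a two-sided exact permutation of libraries within groups (432 arrangements, smallest possible p 0.00231). Of the 28 pairs, 14 had a positive and 14 a negative r, from -0.715 to 0.838 with a median of -0.00654. The mean r was 0.023 over member pairs and 0.00157 over all pairs of genes tested. No pair had an adjusted permutation p below 0.05 over the 28, and 2 had an unadjusted p below 0.05. The pairs are not independent of one another, and the authors' correction left 1 direction across libraries with almost no variation, so co-variation along it could not be seen.

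Emx2 and Mef2c went together most closely, with r = 0.838 and rho = 0.873 over 11 libraries. Both had the smallest exact permutation p, 0.00231, and an adjusted p of 0.0648. Het 2 and Het 9 were above their group means for both genes, by 0.29 and 0.61 log2 units for Emx2 and by 0.22 and 0.19 for Mef2c. Het 7, Het 5 and Het 8 were below them for both genes, and Het 4 and WT 7, which deviated in opposite directions, were close to the mean of Mef2c. Without the 2 libraries farthest out for Emx2, Het 7 and Het 9, r was 0.732, and leaving out 1 library at a time gave 0.768 to 0.897. The exact permutation p was 0.118 without Het 9 and 0.0625 without Het 5 or without Het 8, and at most 0.00694 without any other single library. Its r was 0.82 without both libraries labelled Het 9 and WT 11 (exact permutation p = 0.25, adjusted p = 0.875). In the 6 libraries of prefix 14309, r was 0.851 (exact permutation p = 0.0292 with libraries permuted across genotype and sex, adjusted p = 0.207). With no means taken out, r was 0.481 (permutation p = 0.133, adjusted p = 0.487), and in those values the WT females were the lowest for Mef2c and in the middle of the range for Emx2. The 2 printed stretches differ in base composition, with 24 CpG before the RefSeq start of Emx2 and 1 before that of Mef2c. The Emx2 stretch lies inside the gene as GENCODE annotates it.

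Slc17a7 and Nptx1, the pair of synapse genes, had r = 0.665 and rho = 0.627 over 11 libraries. The exact permutation p was 0.00926 for r and 0.0417 for rho, and the adjusted p was 0.13 and 0.486. Het 8 and WT 3 were low for both genes, by 0.54 and 0.31 log2 units for Slc17a7 and by 0.23 and 0.40 for Nptx1. WT 4 and Het 7 were low for Slc17a7 and within 0.08 of the group mean for Nptx1. Without Het 7 and Het 8, r was 0.627, and without both libraries labelled Het 9 and WT 11 it was 0.791. Within prefix 14309, which holds neither Het 8 nor WT 3, r was 0.298 (exact permutation p = 0.388 with libraries permuted across genotype and sex, adjusted p = 0.688).

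Several of the other pairs depended on few libraries or on what was taken out. Tbr1 and Mef2c had the lowest r, -0.715 (rho -0.673, exact permutation p = 0.0625, adjusted p = 0.438), with Het 2 low for Tbr1 and high for Mef2c and WT 11 the reverse. Without Het 2 and WT 11 it was -0.474, and without both libraries labelled Het 9 and WT 11 it was -0.624. With no means taken out the sign turned and r was 0.563, and in those values the WT females were the lowest libraries for both genes. Neurod6 and Nptx1 had r = 0.619 (rho 0.291, exact permutation p = 0.227, adjusted p = 0.823), and -0.0742 without WT 3 and WT 11, so that relation rested on those 2 libraries. Fezf2 and Lmo3 had r = -0.617 (rho -0.727, exact permutation p = 0.113, adjusted p = 0.529) and -0.523 without Het 7 and WT 3. That pair kept a negative r in all 20 alternatives, from -0.498 to -0.822 without 1 library at a time. Lmo3 and Nptx1 had r = -0.377 over 11 libraries (exact permutation p = 0.565) and 0.186 without both libraries labelled Het 9 and WT 11. Within prefix 14309 their r was -0.884 (exact permutation p = 0.00139 with libraries permuted across genotype and sex, adjusted p = 0.0389). That p comes from a different permutation and is not comparable with those over 11 libraries. Over 20 alternatives, 18 of the 28 pairs changed sign in at least 1 and 10 pairs did not, Emx2 and Mef2c among the 10.

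**Figure D4:**
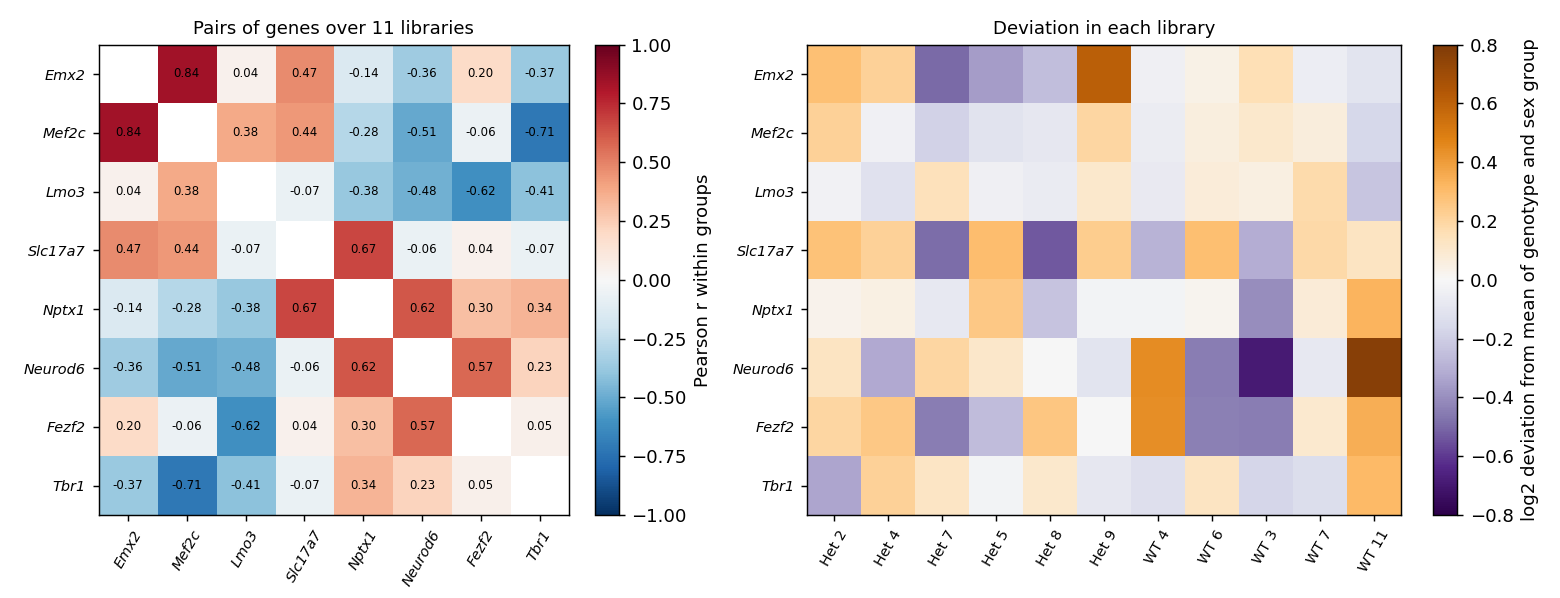
Left, Pearson r over 11 libraries for each pair of the 8 markers, with genotype and sex group means taken out. Right, the deviation of each library from the mean of its genotype and sex group, in log2 units, which shows no library high or low in all 8 genes. Emx2 and Mef2c (0.84) and Slc17a7 and Nptx1 (0.67) are the highest pairs and Tbr1 and Mef2c (-0.71) the lowest.

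No library stood high or low in all 8 genes. The highest library of a gene was 1 of 7 libraries: Het 9 for Emx2 and Lmo3, Het 2 for Mef2c, Het 5 for Nptx1, Het 8 for Tbr1, WT 4 for Fezf2, WT 7 for Slc17a7 and WT 11 for Neurod6. The lowest was 1 of 4 libraries: WT 4 for Tbr1, Lmo3 and Mef2c, Het 7 for Emx2 and Fezf2, WT 3 for Neurod6 and Nptx1, and Het 8 for Slc17a7. WT 4 was the highest library for Fezf2 and the lowest for Tbr1, both markers of deep-layer neurons. Its Tbr1 value is 4 corrected counts, against 7 in WT 6, so that rank rests on a value near the floor. WT 4 is also the only library of prefix 14111. Against the group means, Het 2 and WT 6 had 6 of the 8 genes above and 2 below, and Het 8 and WT 4 had 2 above and 6 below. In the library labelled Het 9, 4 were above and 4 below. WT 6 and WT 4 are the only libraries of their genotype and sex group, so their deviations mirror each other. The within-group SD was 0.486 log2 units for Neurod6, 0.406 for Fezf2, 0.399 for Slc17a7 and 0.374 for Emx2, and 0.146 for Lmo3 and 0.164 for Mef2c.

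**Figure D5:**
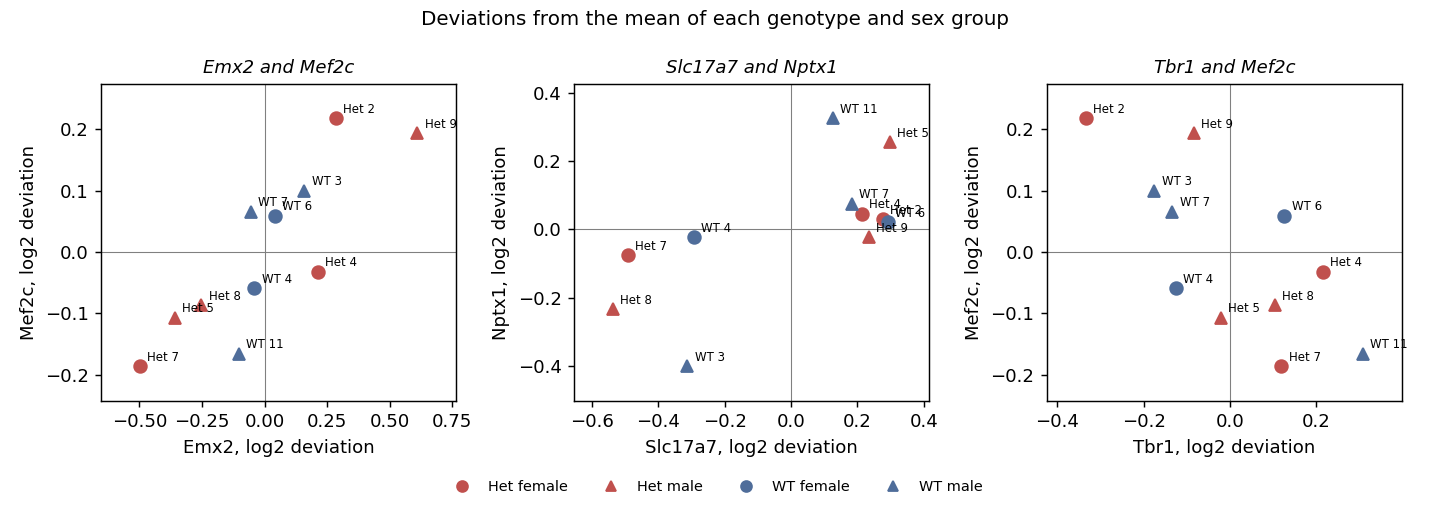
Deviations of each library from the mean of its genotype and sex group, in log2 units, for Emx2 against Mef2c (left), Slc17a7 against Nptx1 (middle) and Tbr1 against Mef2c (right), with Het in red, WT in blue, circles for females and triangles for males. The left panel rises (r = 0.838), the middle panel rises, with Het 8 and WT 3 low for both genes (r = 0.665), and the right panel slopes down, with Het 2 and WT 11 at its ends (r = -0.715).

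The genes of the whole table that were most like each member were named by the highest r over the 11 libraries, with group means taken out. With 13184 genes and 11 libraries some r near 1 are found for any gene, so these are given as a description. For Neurod6 they were Slc35f3 (0.989), Lrrc32 and Rph3al, and for Emx2 Rnf167 (0.977), Ldah and Synpo2. For Tbr1 they were Arid1a (0.963), Unc119 and Poli, for Fezf2 Tpra1 (0.989) and Rab14, for Lmo3 Harbi1 (0.987), Adamtsl2 and Klhl13, and for Mef2c Psmb8 (0.963), Pdcd6 and Arhgdib. For Slc17a7 they were Serping1 (0.97), Prg4 and Ifitm3, and for Nptx1 Zmiz2 (0.967), Tenm2 and Slc4a1ap. Members were left out of this search, and the highest r between any 2 of them, 0.838, was below the r of every gene named here. By the median r over all 8 members, the highest genes were Rflna (0.528), Bicra, Ccnd1, Idua and Bgn.

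Lists of genes from the same regions and families give the surroundings of the 8. Over all 13184 genes tested, 2.30% were called higher and 1.14% lower in Het. A single gene called in a short list is given as a description, and some genes stand in more than 1 list. Of 12 other pallial transcription factors tested, Bcl11b, a factor of deep-layer and striatal neurons, rose in Het, by 0.65 on the log2 scale (SE 0.117, limma adjusted p = 0.0095), and none fell. Of 21 cortical layer markers, Bcl11b and Rorb, an orphan nuclear receptor of the input layer, rose, Rorb by 0.47 (limma adjusted p = 0.00536), with a list median of 0.075. Of 17 hippocampal markers, Zbtb20, a zinc finger factor of hippocampal neurons and astrocytes, rose by 0.53 (limma adjusted p = 0.02), with a median of 0.17. Without both libraries labelled Het 9 and WT 11, its limma adjusted p was 0.0657. Of 12 family relatives, Nptxr rose by 0.38 (limma adjusted p = 0.0376), and Fezf1 had a difference of -0.33 (limma adjusted p = 0.0834). Of 9 amygdala markers, Meis2 rose by 0.55 (limma adjusted p = 0.00536), with a median of -0.014 that turned to 0.127 without both libraries labelled Het 9 and WT 11 and to 0.025 after quantile normalization. Among 5 vesicular transporter and GABA synthesis genes, Gad2 rose by 0.34 (limma adjusted p = 0.0124), and Slc17a6 had a difference of -0.12 (limma adjusted p = 0.356).

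Markers of other brain regions moved with genotype in the same libraries. The shares called over all genes, 2.30% higher and 1.14% lower in Het, stand beside these lists too. Of 18 striatal markers, 9 rose in Het and none fell, among them Drd1, the dopamine D1 receptor, by 0.79 and Scn4b, a sodium channel subunit, by 1.08, and the differences of all 18 were positive with a median of 0.51. Their summed level was 2461 to 4410 CPM in Het and 2089 to 2680 CPM in WT libraries. Of 19 hypothalamic markers, 5 fell and none rose, with a median of -0.24, among them Avp, vasopressin, by 0.65 and Hcrt, the orexin precursor, by 0.38. Without both libraries labelled Het 9 and WT 11, 9 of 18 striatal markers rose and 3 of 19 hypothalamic markers fell, and after quantile normalization 2 of 19 fell, Hcrt not among them (limma adjusted p = 0.0513). The summed hippocampal markers were 907 to 1376 CPM in Het and 738 to 1002 CPM in WT libraries. The library labelled Het 9 had the highest sum of the striatal, hippocampal, cortical layer, amygdala and oligodendrocyte lists and the highest Emx2 and Lmo3. It had the lowest sum of the hypothalamic and endothelial lists. Single genes weighed heavily in some sums. Hpca, a hippocampal marker, averaged 746 CPM in Het and 592 CPM in WT, and Penk, a striatal marker, 1471 and 1125 CPM. Thalamic and habenular markers had 1 of 11 that rose, Tcf7l2, and astrocyte markers 1 of 8, Slc1a2, and Tcf7l2 was not called without both libraries labelled Het 9 and WT 11 (limma adjusted p = 0.082). Of 9 microglia, 8 endothelial, 8 oligodendrocyte and 7 choroid plexus markers none was called. Mef2b, a relative of Mef2c, was at 0 in 3 libraries. The summed level of the 8 genes, most of it Lmo3 and Mef2c, was 192 to 231 CPM in Het and 157 to 221 CPM in WT libraries. The part of any of these lists in the values of the 8 genes was not tested.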

How the data were processed

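RNA-seq libraries from hypothalamus of 6 Het and 5 WT mice were analysed. The labels name a Zymo kit for RNA extraction and SMARTer Ultra Low for library preparation. Per the submitters' processing notes, Trimmomatic, Bowtie2, STAR and HTSeq were used with build mm10, with no versions or strand setting stated. The deposited values are log2 CPM plus a small constant, made by the authors after the RUVr correction that the table is named for, which removes unwanted variation estimated from residuals. The planned tests assumed CPM, so the floor (lowest log2 value -3.574) was subtracted after turning the values back to CPM. All values were then whole multiples of 1 step per library, within 0.02 of a whole number. The depth of raw reads is unknown. Exon lengths came from GENCODE for mm10, which held 14856 of 14864 genes.

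Log2(CPM + 0.5) of 13184 genes with a mean of at least 1 CPM (1680 left out) was fitted in R 4.3.3 by limma 3.58.1, through lmFit and trended eBayes, on genotype and sex. Tests were two-sided, with Benjamini-Hochberg adjustment over those genes and a threshold of 0.05. Over 13039 genes, 1 direction across libraries had a singular value of 0.443, against 20.9 to 35.0 for the others, and correlations of 0.000441 with genotype and 0.00421 with sex. Variation was thus removed around genotype and sex, and the errors here are too small by an unknown amount. P-values measure the spread between these libraries, which may be partly technical. Exact permutations used Python 3.11.15 with numpy 2.4.6. Both tests were tested on simulated data.

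The members, lists, tests and alternatives were chosen with earlier results of these data known. The genes named are the 8 members, up to 4 genes of each list with the smallest p-values, the 3 genes with the highest r with each member and the 5 with the highest median r. Some genes that this rule or the lists cover are not reported here. The lists under other settings and the comparison within both sexes were added after seeing the data.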

Additional observations from a re-analysis of the deposited data

Results flagged for a closer look

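The 16 groups of Het or WT libraries, 1 for each gene and genotype, were searched for a library far from the rest of its group by Dixon's criterion at the 95% level, which chance meets in about 1 of 20 groups, and 2 libraries met it. Tbr1 was 0.845 CPM in Het 2, the lowest Het library, against 1.34 to 1.60 CPM in the other 5 Het libraries. Emx2 was 2.32 CPM in WT 3, the highest WT library, against 1.79 to 1.93 CPM in the other 4. The cause of neither was tested.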

How the results depend on the processing

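The errors are too small after the authors' correction, the Het 9 and WT 11 libraries are in doubt for their Myt1l level, and WT females are 2 libraries. Tbr1 rests on 4 to 38 corrected counts. For Het against WT, limma called 453 genes, and 189 with 1 residual degree of freedom taken off, 229 without WT 11 and Het 9 together, 200 with genotype as the only term, 6 within prefix 14308, 16 within prefix 14309, 300 with the prefix as a block, 170 without a trend, 1 in males alone and 0 in females alone (1981 at an unadjusted p below 0.05). Leaving out 1 library at a time gave 140 (WT 6) to 820 (WT 3). Libraries centred on their medians gave 233 higher and 243 lower genes and quantile normalization 362 and 102, against 303 and 150. With the replicate number as a block, 46 genes were called. That block rests on numbers 4 and 7 alone, which join libraries of other prefixes or sexes, so no pairing is given by the labels, and no member was called with it. For female against male, 26 genes became 11 with 1 degree of freedom off and 17 without WT 11 and Het 9, and 10 to 62 (WT 11) without 1 library. Genotype by sex called 0 genes in each alternative run. The count of pairs was 0, and 1 within prefix 14309, where libraries were permuted freely across genotype and sex.

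No member's call changed except Tbr1 for genotype and Lmo3 for sex without WT 11, and the permutation call of Fezf2 without WT 6. Genotype differences with the other sign were, for Mef2c, -0.231 within prefix 14308 and -0.0507 in males, for Lmo3 -0.0742 with the replicate block, for Neurod6 0.0761 within prefix 14308, for Emx2 0.217 within prefix 14309 and 0.0364 in females, and for Slc17a7 0.383 in females. Without 1 library at a time, Emx2 ranged over -0.217 to 0.0251 and Slc17a7 over -0.404 to 0.000126, with the same ranges in the single-gene permutation. The signs of these sex differences also turned: Fezf2 (0.0342) and Nptx1 (0.0287) without WT 11 and Het 9, Emx2 (-0.0166) after quantile normalization, and, without 1 library at a time, Fezf2 (-0.206 to 0.0889), Nptx1 (-0.11 to 0.0357), Neurod6 (-0.00589 to 0.298), Emx2 (-0.0848 to 0.157) and Slc17a7 (-0.393 to 0.0106). The genotype by sex term turned for Lmo3 (0.0512) and Neurod6 (-0.19) without WT 11 and Het 9, and without 1 library ranged over -0.555 to 0.33 for Fezf2 and -0.203 to 0.695 for Neurod6. Tbr1 and Mef2c had r = 0.563 with no means taken out and 0.38 with genotype means taken out, and Lmo3 and Nptx1 had r = 0.186 without WT 11 and Het 9 and -0.558 to 0.137 without 1 library. Fezf2, Emx2 and Tbr1 gave no value under a filter of 5 CPM. The cause of these changes was not tested.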
